A study of Mus musculus with 6 samples.

Results

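The genes of the calcineurin and NFAT pathway were examined in whole lung of FVB males (FVB/N in the methods) aged 6 days (P6). The 10 members were Rcan1 and Rcan2, the calcineurin subunit genes Ppp3ca, Ppp3cb, Ppp3cc and Ppp3r1, and the transcription factor genes Nfatc1, Nfatc2, Nfatc3 and Nfatc4. They were taken by symbol from the 18138 gene symbols of the array, and all 23 of their probes were read out of 25697. Rcan1 was included because its intensity was far lower in hSRY-ON lungs, so its values are given as a description, with no test. The other members were chosen by name, with earlier results of these data known.

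Calcineurin is a phosphatase that is switched on by calcium and calmodulin. It removes phosphates from the cytoplasmic NFAT proteins, which then enter the nucleus, where they often bind DNA beside AP-1 factors. The Rcan proteins bind calcineurin and restrain it, and Rcan1 is itself a classical NFAT target, so that its transcript is often read as a sign of calcineurin activity. In the developing lung the pathway is known from the epithelium, where loss of the regulatory subunit disturbs surfactant production, and from vessels, smooth muscle and lymphocytes.

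The study used a Cre-dependent transgene inserted as a single copy at the H11 locus, in which the strong and widely active CAG promoter drives DsRed2 until recombination places FLAG-tagged human SRY and EGFP behind it. In hSRY-ON mice (n = 3) the transgene was recombined in the fertilized egg by Cre protein from a Ddx4-Cre mother, and these mice did not carry Ddx4-Cre themselves. The hSRY-OFF mice (n = 3) are defined by the study as carrying the unrecombined transgene, although it also speaks of littermates without the transgene as controls. All mice were P6 males, and each gave 1 Illumina MouseRef-8 array of whole lung RNA. The transgene was activated throughout the body and not in the lung alone, so effects arising within the lung and effects from other organs cannot be told apart. Its product has no probe on the array.

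Between 13191 and 14134 probes were detected per array (detection p under 0.05, meaning that few negative control probes were brighter), and the median intensity ranged from 177.1 to 204.0. The labelled tissue was borne out by its markers, since all 8 lung epithelial markers, among them Sftpc, Scgb1a1 and Ager, were detected on all 6 arrays. Levels are given below as normalized log2 intensities and changes as hSRY-ON minus hSRY-OFF on this scale. A probe was called at an adjusted p under 0.05 (limma, Benjamini-Hochberg adjustment over 13841 tested probes), which holds for 26.9% of the tested probes, 13.3% lower and 13.6% higher in hSRY-ON. Whole lung was measured, so fewer cells of a type and less RNA per cell cannot be told apart.

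The sequences around the starts of Rcan1 and Nfatc4 are shown first, because Rcan1 had the largest difference among the members and Nfatc4 was, apart from Rcan1, the member called lower with the smallest p. RefSeq windows of 300 bases on GRCm38.p6, from 250 bases before a start to 50 bases after it, matched 7 of the 10 members with 12 windows. Capitals mark GGAAA or its reverse complement TTTCC, the core letters of NFAT sites, and TGACTCA or its reverse complement TGAGTCA, the letters of AP-1 sites. Both strands were searched and the capitals do not overlap. The windows are the upstream Rcan1 start at chr16:92466120-92466419 (minus strand), the downstream Rcan1 start at chr16:92400029-92400328 (minus strand) and the Nfatc4 start at chr14:55824545-55824844 (plus strand).
Rcan1, upstream start: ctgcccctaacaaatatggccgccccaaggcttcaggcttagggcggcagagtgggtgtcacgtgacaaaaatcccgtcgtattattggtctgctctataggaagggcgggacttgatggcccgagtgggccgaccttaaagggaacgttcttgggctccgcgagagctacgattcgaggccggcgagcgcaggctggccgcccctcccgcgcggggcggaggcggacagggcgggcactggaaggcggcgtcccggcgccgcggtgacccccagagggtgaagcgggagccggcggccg
Rcan1, downstream start: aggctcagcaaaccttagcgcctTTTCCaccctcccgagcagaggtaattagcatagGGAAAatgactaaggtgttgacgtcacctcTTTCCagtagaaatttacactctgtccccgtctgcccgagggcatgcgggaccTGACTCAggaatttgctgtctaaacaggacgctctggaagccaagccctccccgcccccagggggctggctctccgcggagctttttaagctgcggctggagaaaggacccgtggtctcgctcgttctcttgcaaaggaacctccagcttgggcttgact
Nfatc4: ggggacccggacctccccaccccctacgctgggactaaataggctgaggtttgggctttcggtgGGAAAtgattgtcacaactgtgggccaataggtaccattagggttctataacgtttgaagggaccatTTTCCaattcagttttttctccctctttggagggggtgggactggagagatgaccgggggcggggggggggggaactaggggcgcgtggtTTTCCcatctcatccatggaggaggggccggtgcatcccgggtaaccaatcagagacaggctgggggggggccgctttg

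Both starts of Rcan1 lie 66091 bases apart and the downstream one is inside the gene. Its window held 3 copies of GGAAA or TTTCC and 1 copy of TGACTCA, whereas the upstream window held none of either. The window of Nfatc4 held 3 copies of GGAAA or TTTCC and none of the AP-1 letters. Members that were not called, or in the case of Nfatc2 not tested, held such letters too. The window of Ppp3cb held 4 copies of GGAAA or TTTCC, 1 window of Nfatc2 held 3, and 1 window of Rcan2 held the AP-1 letters. Among all 32851 RefSeq windows of the same length, 61.3% held at least 1 copy of GGAAA or TTTCC, 9.42% held at least 3, and 5.2% held TGACTCA or TGAGTCA. These letters are common and a match is not a binding site. The table of intensities does not say which Rcan1 transcript its probe matches, so the signal below cannot be assigned to either start.

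Rcan1 encodes a feedback inhibitor of calcineurin. Its single probe, ILMN_1259180, was at 10.60, 10.43 and 10.16 on the hSRY-OFF arrays and at 7.19, 6.85 and 7.98 on the hSRY-ON arrays. All hSRY-ON values lay below all hSRY-OFF values, and hSRY-ON replicate 3 was the highest of its group. The mean went from 10.40 ± 0.22 (SD, n = 3) to 7.34 ± 0.58 (SD, n = 3), a change of -3.06, or 8.33-fold lower in hSRY-ON. The probe was detected on all 6 arrays, so this is a measured difference and not a bound.

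The deposited intensities of Rcan1, before any correction, were 1656, 1393 and 1491 in hSRY-OFF and 270.3, 235 and 399 in hSRY-ON. The hSRY-ON values lie nearer to the array medians, and the size of the change therefore depends on how background is treated. It was -2.29 without background correction. With a normexp correction that adds an offset of 50, where the main correction adds 16, it was -2.67. With each array left out in turn it lay between -3.36 (without hSRY-ON replicate 3) and -2.79 (without hSRY-ON replicate 2).

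Rcan2, a related inhibitor of calcineurin with its own gene, had 3 probes and none was called. The brightest, ILMN_3106592, was at 7.09, 7.32 and 7.65 in hSRY-OFF and at 7.28, 7.53 and 7.65 in hSRY-ON, so the groups overlapped. Its change was 0.13, with a 95% interval from -0.29 to 0.55 (limma, adjusted p = 0.615). ILMN_1212612 changed by 0.10 (interval -0.31 to 0.50). The dimmest probe, ILMN_3033007, was detected on 2 hSRY-ON arrays and changed by -0.41 (interval -0.93 to 0.11). Rcan3, which belongs to the same family but not to the members, was not called either, at -0.19 (interval -0.53 to 0.15; limma, adjusted p = 0.350).

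**Figure D1:**
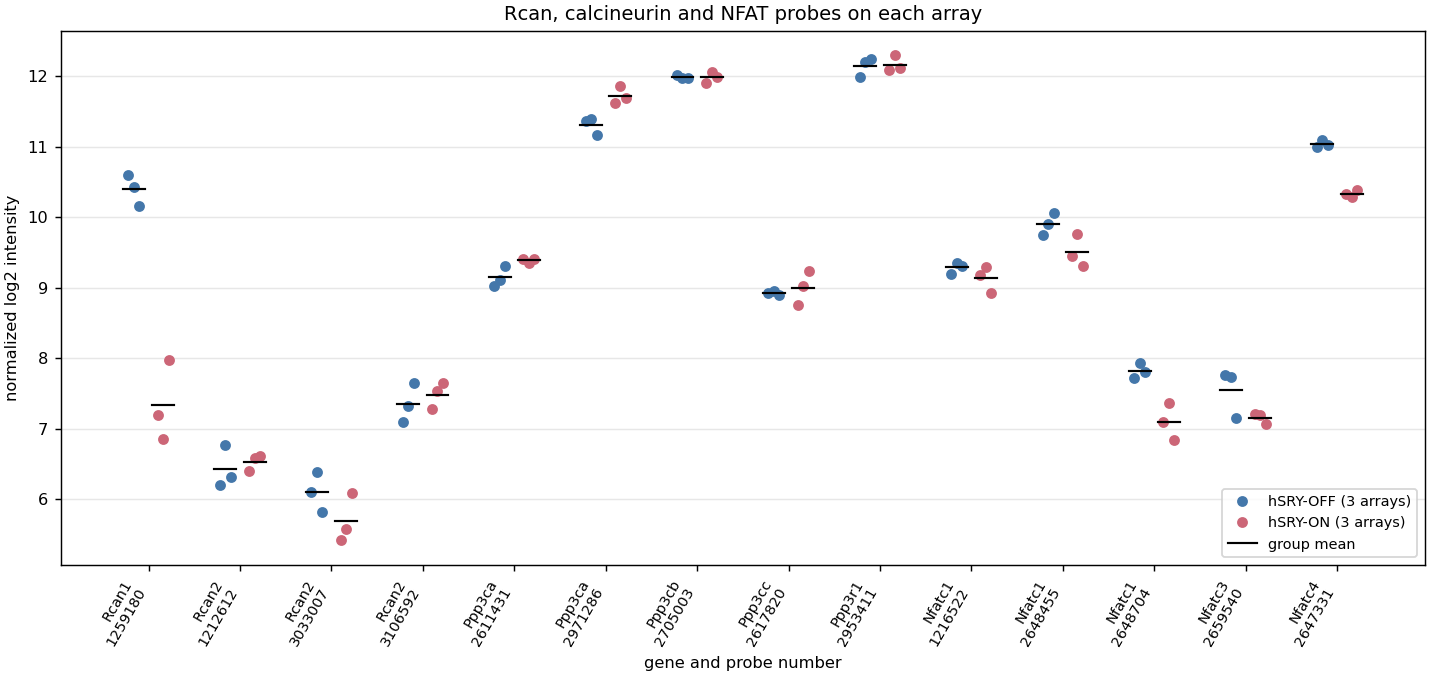
Normalized log2 intensity (vertical axis) of the 14 detected probes of Rcan, calcineurin and NFAT genes (horizontal axis, gene and probe number); points are arrays, blue for hSRY-OFF and red for hSRY-ON, 3 each, and lines are group means. The Rcan1 points of hSRY-ON lie below 8 and those of hSRY-OFF above 10, and the groups also separate for Nfatc4, 1 of 3 Nfatc1 probes and both Ppp3ca probes.

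Calcineurin is a pair of a catalytic subunit, encoded by Ppp3ca, Ppp3cb or Ppp3cc, and a regulatory subunit, here Ppp3r1, which binds calcium. Among the 5 tested probes of these genes, 1 was called higher in hSRY-ON and none lower, beside 13.6% and 13.3% of all tested probes. The called probe, ILMN_2971286 of Ppp3ca, was at 11.36, 11.39 and 11.17 in hSRY-OFF and at 11.62, 11.86 and 11.70 in hSRY-ON, without overlap. It rose by 0.42 (SE 0.13), or 1.34-fold (limma, adjusted p = 0.0489). This call lies at the threshold and was lost in 9 of 15 alternatives. These were median scaling, no detection filter, array weights, the replicate block and leaving out any array other than hSRY-ON replicate 1. Over the 15 alternatives the change stayed between 0.35 and 0.49 and the adjusted p between 0.0154 and 0.153.

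The second tested Ppp3ca probe, ILMN_2611431, was at 9.02, 9.11 and 9.31 in hSRY-OFF and at 9.40, 9.36 and 9.41 in hSRY-ON. These groups did not overlap either, but the change of 0.24 (interval -0.04 to 0.53) was not called (limma, adjusted p = 0.175). The last Ppp3ca probe, ILMN_1227899, was not detected on any array.

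The other subunit genes had fitted changes near 0, with intervals that included 0 and do not exclude modest changes. Ppp3cb, the catalytic beta subunit, was at 12.02, 11.98 and 11.98 in hSRY-OFF and at 11.91, 12.06 and 11.98 in hSRY-ON, a change of -0.01 (interval -0.26 to 0.25). Ppp3cc, the catalytic gamma subunit, changed by 0.08 (interval -0.27 to 0.42). Ppp3r1 changed by 0.02 (interval -0.29 to 0.32), from 12.15 ± 0.14 (SD, n = 3) to 12.16 ± 0.11 (SD, n = 3). None of these 3 genes was called (limma, adjusted p = 0.967, 0.728 and 0.934), and in each the groups overlapped.

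The NFAT genes had 13 probes, of which 5 were tested. All 5, of which 3 belong to Nfatc1, had a fitted change below 0, as did 7357 of all 13841 tested probes. Of the 5, 2 were called lower, beside 13.3% of all tested probes. Nfatc4 was called on its only probe, ILMN_2647331, which was at 10.99, 11.10 and 11.03 in hSRY-OFF and at 10.33, 10.29 and 10.39 in hSRY-ON. Both groups were tight, with SDs of 0.06 and 0.05, and lay far apart. Nfatc4 fell by 0.71 on the log2 scale with a standard error of 0.11, which is 1.63-fold lower (limma, adjusted p = 0.00543). It was called in all 15 alternatives, with a change between -0.74 and -0.65 and an adjusted p between 0.00088 and 0.0337.

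Nfatc1, known for its roles in heart valve endothelium and in osteoclasts, had 6 probes that did not all show the same. ILMN_2648704 was called lower. It was at 7.72, 7.93 and 7.80 in hSRY-OFF and at 7.10, 7.37 and 6.85 in hSRY-ON, without overlap, a change of -0.71 (SE 0.16; limma, adjusted p = 0.0183). The call was lost without any 1 of the hSRY-OFF arrays, at an adjusted p of 0.0553, 0.0766 and 0.0583 without replicates 1, 2 and 3, against a range from 0.0103 to 0.0766 over all alternatives. Its size was -0.39 without background correction.

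The brightest Nfatc1 probe, ILMN_2648455, was at 9.75, 9.91 and 10.06 in hSRY-OFF and at 9.45, 9.76 and 9.31 in hSRY-ON. Only the lowest hSRY-OFF value lay below the highest hSRY-ON value, and the change of -0.40 was not called (interval -0.77 to -0.02; limma, adjusted p = 0.105). ILMN_1216522 changed by -0.16 (interval -0.48 to 0.16). Of the 3 probes that failed the detection filter, 2 were not detected on any array. The remaining one, ILMN_2647734, was detected on 2 hSRY-OFF arrays and on no hSRY-ON array, close enough to background that no fold can be given. Which transcripts of Nfatc1 these probes match is not stated in the table, and the 95% intervals of its 3 tested probes overlap.

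Nfatc3 was at 7.77, 7.74 and 7.15 in hSRY-OFF and at 7.21, 7.19 and 7.07 in hSRY-ON. The low value of hSRY-OFF replicate 3 made the groups overlap, and the change of -0.39 was not called (interval -0.83 to 0.04; limma, adjusted p = 0.156). Without that array the change was -0.59 and was called (adjusted p = 0.0384), where the range over all alternatives was 0.0384 to 0.389. Nfatc2, the main NFAT of resting T cells, had 5 probes and none was detected on any array, so its level in these lungs was not measurable here.

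**Figure D2:**
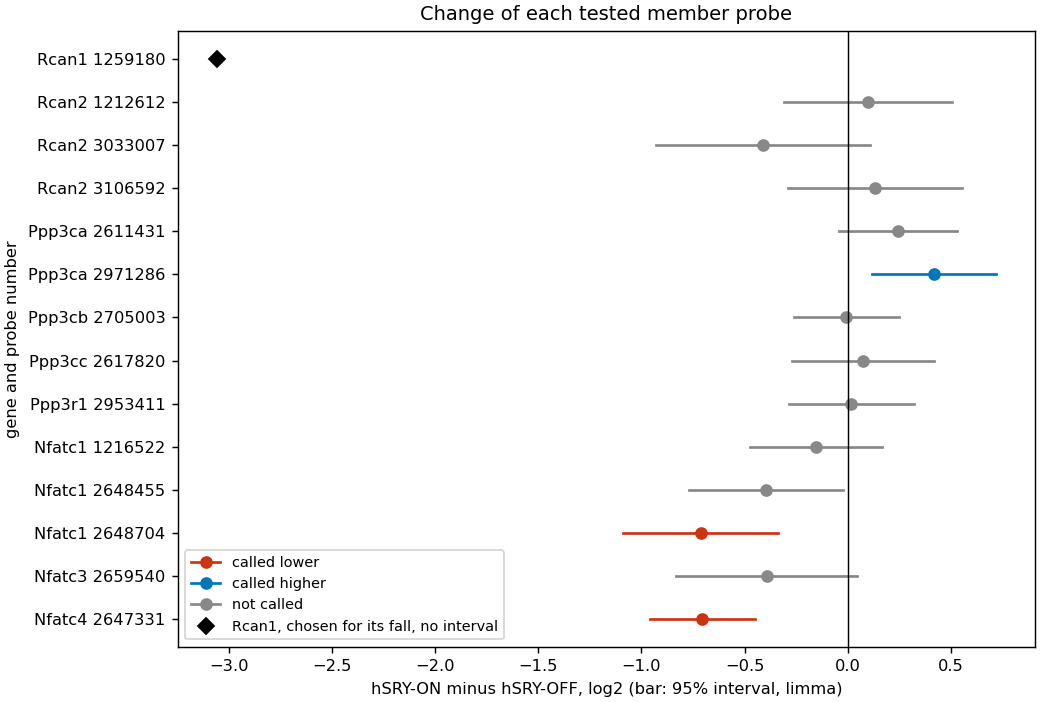
Change of each detected probe, hSRY-ON minus hSRY-OFF on the log2 scale (horizontal axis), by gene and probe number (vertical axis), with 95% intervals from limma; Rcan1, chosen for its value, is drawn without one. Rcan1 stands at -3.06, Nfatc4 and 1 Nfatc1 probe were called lower near -0.71, 1 Ppp3ca probe was called higher at 0.42, and the intervals of the other probes, apart from the brightest Nfatc1 probe, include 0.

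In all, 14 of the 23 probes, for 9 of the 10 genes, passed the detection filter, and 8 probes were not detected on any array. Leaving Rcan1 aside, 2 of the other 13 probes were called lower and 1 was called higher. Among all tested probes 26.9% were called, 13.3% lower and 13.6% higher. The groups did not overlap in 4 of these 13 probes, against 46.6% of all tested probes. The median change over the 13 probes was -0.01, and over all tested probes it was -0.03.

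The wider pathway was followed through 6 lists with 60 genes, of which 51 were on the array and 33 were tested, with 1 probe for each gene. The lists were chosen with earlier results known. Of the 33 genes, 4 were called lower and 5 higher, where 27.9% of all genes were called with 1 probe per gene, 12.9% lower and 14.9% higher. The median change was 0.20 over the 33 genes and -0.01 over all 10292 genes. The counts of each pathway list that follows stand beside the same shares of all genes.

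Upstream of calcineurin, 9 genes of calcium entry, calcium release and calmodulin were tested. Of these, 2 were called higher and none lower, with a list median of 0.25. Itpr1, a receptor that releases calcium from the endoplasmic reticulum, was at 11.73, 11.67 and 11.83 in hSRY-OFF and at 12.36, 12.60 and 12.34 in hSRY-ON. It rose by 0.69 with a standard error of 0.13, or 1.62-fold (limma, adjusted p = 0.00926). The phospholipase gene Plcg2, whose product makes the ligand of this receptor and which is best known from blood cells, rose by 0.60 (limma, adjusted p = 0.0238). The call of Plcg2 was lost with median scaling and without each hSRY-OFF array or hSRY-ON replicate 2, at an adjusted p of up to 0.0887, where the lowest over the alternatives was 0.00927.

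The calcium entry genes Stim1, Orai1 and Orai3 changed by 0.25, 0.20 and 0.37, and none was called. The calmodulin genes Calm3 and Calm2 changed by -0.37 and -0.33 and were not called either.

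Among 4 tested genes on the list of calcineurin regulators and anchors, 1 was called lower and none higher, with a list median of -0.19. Fkbp1a, which encodes the small protein through which the drug tacrolimus blocks calcineurin, was at 13.38, 13.47 and 13.18 in hSRY-OFF and at 12.63, 12.58 and 12.77 in hSRY-ON, without overlap. It fell by 0.68 on the log2 scale (SE 0.13; limma, adjusted p = 0.0104), and the call was lost without hSRY-OFF replicate 2 (adjusted p = 0.0514, the highest of its alternatives) and without hSRY-OFF replicate 1. Ppia, the target of cyclosporin, changed by -0.19 and was not called. None of the 4 tested genes on the list of NFAT kinases and retention, which also holds the related factor Nfat5, was called. These were Gsk3a, Gsk3b, Dyrk2 and Nfat5, with a list median of 0.06.

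Among 7 tested partners of NFAT in transcription, 1 was called lower and none higher, with a list median of 0.02. Mef2c, a muscle and endothelial factor that also responds to calcineurin, was at 9.84, 9.58 and 9.60 in hSRY-OFF and at 8.42, 8.43 and 8.96 in hSRY-ON. It fell by 1.07 on the log2 scale with a standard error of 0.18, or 2.10-fold (limma, adjusted p = 0.00733), and it was called in all 15 alternatives. Its 2 other probes fell by 0.89 and 0.95. Fos, a subunit of AP-1, was at 7.11, 7.67 and 6.88 in hSRY-OFF and at 9.20, 9.08 and 6.99 in hSRY-ON. Replicates 1 and 2 of hSRY-ON were high and replicate 3 was within the hSRY-OFF values, so its change of 1.21 was not called (interval -0.15 to 2.56; limma, adjusted p = 0.160).

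Of 13 genes on the array that are known as NFAT targets in lymphocytes or vessels, 3 were tested. Of these 3, 2 were called lower and none higher, beside 12.9% and 14.9% of all genes. The other 10 on the array failed the detection filter, and 6 of them, such as Il4, Ifng and Ptgs2, were not detected on any array. Vcam1, an adhesion molecule for white blood cells, was at 11.80, 11.87 and 11.72 in hSRY-OFF and at 10.85, 10.53 and 11.07 in hSRY-ON. It fell by 0.98 on the log2 scale with a standard error of 0.16, or 1.97-fold (limma, adjusted p = 0.00646), and was called in all 15 alternatives. Egr2, a zinc finger factor, fell by 0.41 (limma, adjusted p = 0.0409), but it is dim and lost its call in 10 of 15 alternatives, with an adjusted p from 0.0324 to 0.171. Angpt2, a vessel growth factor, changed by -0.54 and was not called (limma, adjusted p = 0.0721).

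Of the 6 surfactant genes, all tested, 3 were called higher and none lower, with a list median of 0.40. Sftpb, a surfactant protein needed for breathing, was at 13.27, 13.45 and 13.28 in hSRY-OFF and between 13.94 and 14.07 in hSRY-ON. It rose by 0.67, or 1.59-fold (limma, adjusted p = 0.00800), and its other probe rose by 0.52. Abca3, which loads lipid into the storage bodies of surfactant, rose by 0.60 from 12.62 ± 0.06 to 13.22 ± 0.05 (SD, n = 3 each; limma, adjusted p = 0.00888). Sftpc, the surfactant protein that marks alveolar type II cells, was at 14.26, 14.34 and 14.24 in hSRY-OFF and at 14.15, 13.92 and 14.03 in hSRY-ON. The groups did not overlap, but the change of -0.25 was not called (interval -0.53 to 0.02; limma, adjusted p = 0.150). Sftpa1 changed by 0.41 and the lipid enzyme gene Lpcat1 by -0.18, and neither was called. The dim second probe of Abca3, at 6.10 in hSRY-OFF, changed by -0.07 and was not called. The named probes of Sftpb and Abca3 were called in all 15 alternatives. Sftpd, a secreted defence protein, rose by 0.39 (limma, adjusted p = 0.0421) and lost its call in 7 alternatives, with an adjusted p of up to 0.164 and down to 0.00343. These were cyclic loess, the replicate block and leaving out any array other than hSRY-ON replicate 3.

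**Figure D3:**
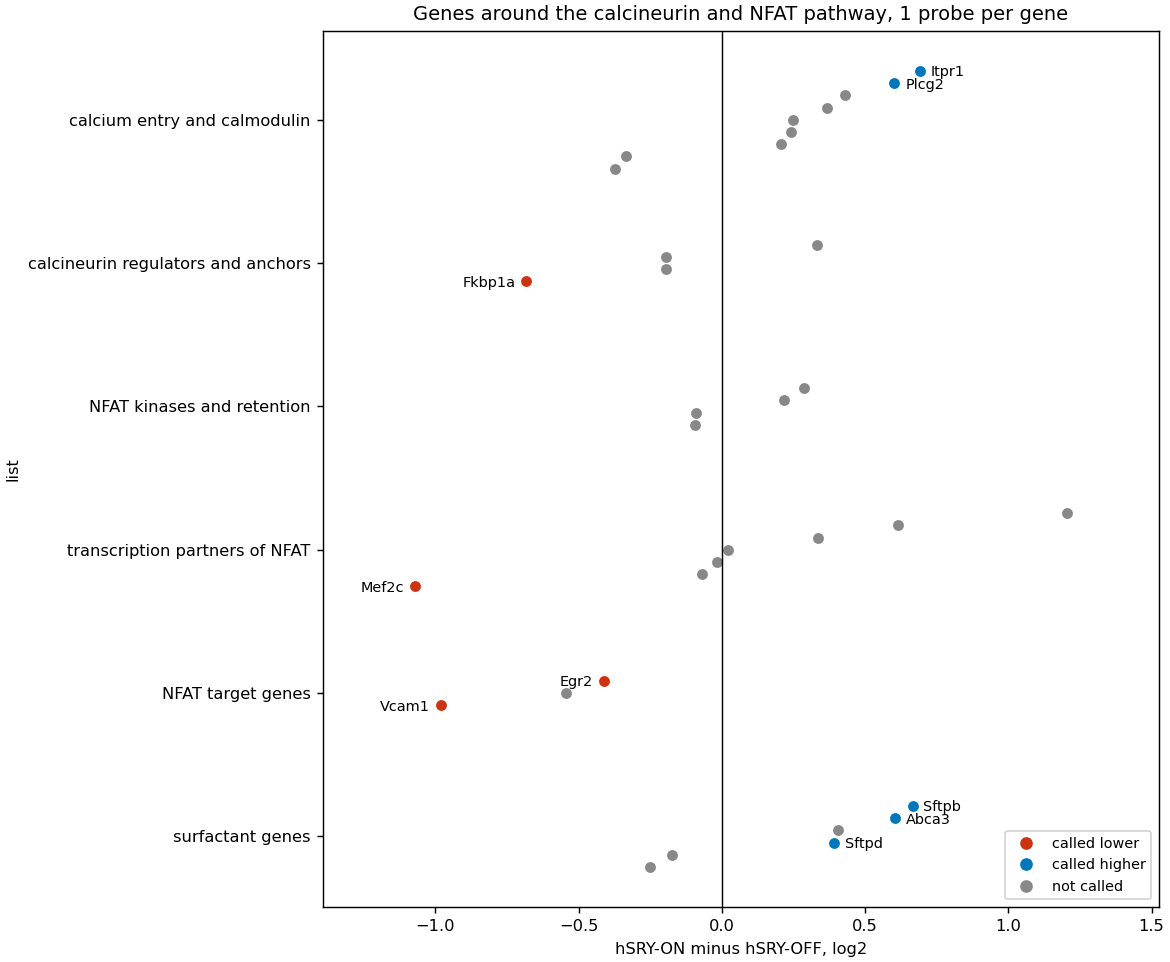
Change of 33 genes around the pathway, hSRY-ON minus hSRY-OFF on the log2 scale (horizontal axis), grouped by list (vertical axis; the small vertical steps within a list only separate the points); each point is 1 gene, red where called lower, blue where called higher and grey where not called. The called genes are named, and among them Mef2c and Vcam1 lie farthest to the left at -1.07 and -0.98. Itpr1 and Sftpb are the called genes farthest to the right, at 0.69 and 0.67. The uncalled Fos, not named, lies beyond them at 1.21.

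To describe which genes followed Rcan1 across the arrays, each probe was centred on its own mean and its root mean square difference from Rcan1 over the 6 arrays was taken. This measure includes the difference between groups that chose Rcan1 and the pattern among replicates, so both are shared by construction. The nearest gene was Tnc, which encodes the matrix protein tenascin C, at a difference of 0.17 log2 units. Next came St8sia2, a polysialic acid transferase (0.32), Aard (0.34), the sodium channel subunit gene Scn3b (0.37) and the retinoic acid binding protein gene Crabp1 (0.38).

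Tnc was at 9.82, 9.96 and 9.27 in hSRY-OFF and at 6.50, 6.40 and 7.46 in hSRY-ON. In the other 4 genes too, hSRY-ON replicate 3 was the highest array of its group, a pattern that the choice by likeness to Rcan1 already favours. The fitted changes of the 5 genes lay between -2.90 and -2.44, but without background correction they were -1.93 for Tnc, -1.87 for St8sia2, -2.19 for Aard, -1.61 for Scn3b and -0.99 for Crabp1. The other tested probes of Tnc were lower in hSRY-ON as well, which the choice of Tnc by its values already favours. Crabp1 was detected on 1 of the hSRY-ON arrays, so its change and its place in this order depend on the treatment of background.

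**Figure D4:**
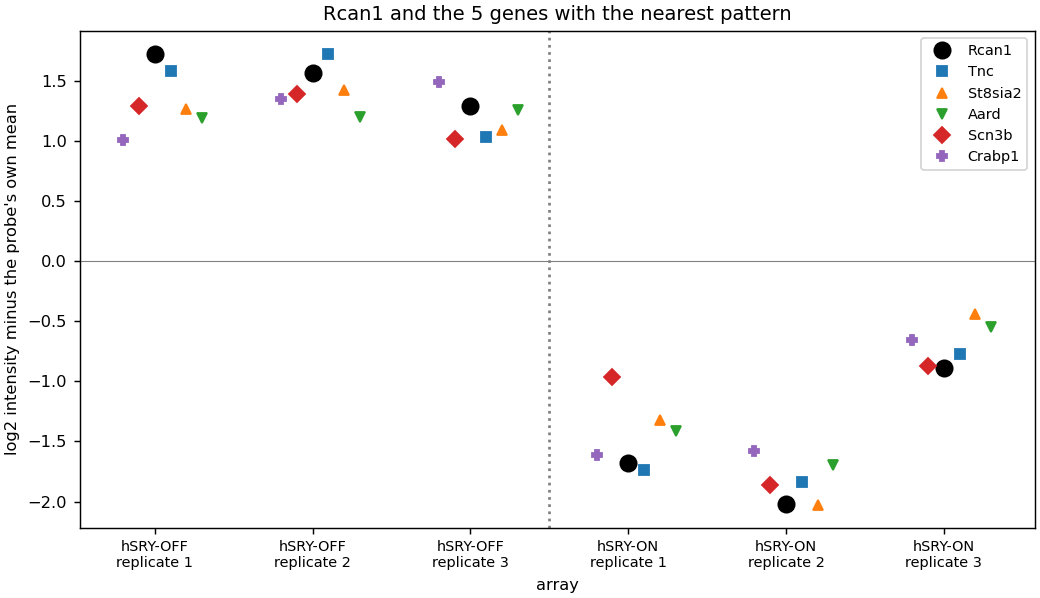
Log2 intensity minus the mean of the probe over all arrays (vertical axis) for Rcan1 (black) and the 5 genes nearest to it, on each of the 6 arrays (horizontal axis); points of 1 array are set side by side. In all 6 genes every hSRY-ON point is below every hSRY-OFF point, and hSRY-ON replicate 3 is the highest of the hSRY-ON arrays.

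Markers of several lung cell types also differed between the groups. The counts of every marker list that follows stand beside 12.9% of all genes called lower and 14.9% called higher, with 1 probe per gene. Of the 7 tested smooth muscle markers 6 were called lower and none higher. Among them Myh11 fell by 1.12 and Acta2 by 0.62 on the log2 scale. The summed normalized intensity of the list was 37270 to 40162 in hSRY-OFF and 18799 to 26546 in hSRY-ON. The probe of Cnn1 was not detected on any array. Of the 7 tested endothelial markers 4 were called lower and none higher, with sums of 50969 to 54030 and 34859 to 37402, and the probe of Kdr was not detected.

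Among the 6 tested T lymphocyte markers 4 were called lower and 1, Thy1, higher. The sums were 2125 to 2274 in hSRY-OFF and 1225 to 2199 in hSRY-ON, and neither Cd4 nor Cd8a was detected. Among the 7 tested macrophage markers 4 were called higher and none lower, with sums of 3227 to 3538 and 6264 to 11153, and Siglec5 was not detected. Of the 5 tested cardiac muscle markers 1, Myl4, was called lower, by 1.94 on the log2 scale, and none was called higher. The sums were 6162 to 8059 and 2092 to 3400. On the hSRY-OFF arrays most of the sum of this list came from Myl4. Myl7 changed by -0.99, Myh6 by 0.08, Actc1 by 0.30 and Tnni3 by -0.11, none of them called, and Pln and Ryr2 were not detected.

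Of the 8 mesenchymal markers 3 were called lower and none higher, with sums of 43523 to 47234 and 47288 to 48546. Eln, the brightest of the list, changed by 0.33 without overlap of the groups but was not called (limma, adjusted p = 0.0592). Tcf21 and Pdgfra changed by 0.23 and 0.19, and Col3a1 and Fgf10 by -0.73 and -0.34, none of them called. Of the 8 lung epithelial markers 2, Foxj1 and Sftpb, were called higher and none lower, with sums of 84356 to 89406 and 86383 to 93686. None of the 6 tested erythroid markers was called, with sums of 58313 to 66567 and 58749 to 66335, and Epb4.2 was not detected. These shifts stand beside the differences in Rcan1, Nfatc4, Nfatc1, Mef2c, Vcam1 and the surfactant genes, and their part in them was not tested.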

How the data were processed

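The authors deposited 1 table of unnormalized bead intensities, on a linear scale, with a detection p-value for each probe and array, the share of negative controls brighter than the probe. Per the labels, biotinylated cRNA was made from total RNA with an amplification kit, and the methods name MouseRef-8 v2.0 BeadChips. The software that summarised the beads is not given in the sources used here. The authors used the count method TCC; intensities need another test, and limma (version 3.58.1, under R 4.3.3) was chosen instead.

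Negative control levels were inferred from these p-values for background correction, followed by an offset of 16, quantile normalization and log2, as in neqc. This compresses changes of dim probes and removes overall shifts. A probe entered the fit where 3 or more of the 6 arrays detected it (p under 0.05), which left 13841 probes, tested with lmFit and eBayes, without covariates. The number of arrays limits the precision, and an exact permutation test of 1 probe cannot go below p = 0.1. No 2 arrays held identical values.

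The members and all gene lists were chosen with earlier results of these data known. All member probes are accounted for, though not each by its number. Each pathway list gives its 3 called genes of smallest p, on the tested probe of highest mean per gene, and 5 genes were taken nearest to Rcan1. Other genes given with their values were chosen after the values were seen. Older symbols were matched through RefSeq synonyms (GRCm38.p6), and Chp1, Chp2 and Lpcat1 stand in the table under older names. The pipeline was tested on simulated data with known changes. Alternatives covered background correction, normalization, filter, variance model, array weights, replicate block, threshold and each array left out, with the others normalized and filtered anew.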

Additional observations from a re-analysis of the deposited data

How the results depend on the processing

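The changes of the member probes and of the other named genes were recomputed under 15 alternatives, 418 values in all. Of these, 364 kept their direction and their side of the threshold (or, without a test, moved by less than 1 SD), 36 lost a call, 1 gained one, 8 untested values moved further and 9 turned direction. The 364 include Rcan1 and the 5 genes nearest to it, which had no test. For these the filter, the variance model and the replicate block cannot alter the fitted change. Their agreement under those alternatives was therefore fixed beforehand and shows no stability. The 9 that turned direction belong to uncalled probes near 0. Ppp3cb (-0.01 in the report) was at 0.00508 with cyclic loess, 0.0815 with median scaling and 0.0046 with array weights, and between -0.0457 and 0.0312 with an array left out, above 0 without hSRY-OFF replicate 1 and hSRY-ON replicate 1. With an array left out, Rcan2 ILMN_1212612 lay between -0.0139 (without hSRY-OFF replicate 1) and 0.266, Ppp3cc between -0.0404 (without hSRY-ON replicate 3) and 0.197, and Ppp3r1 between -0.0621 and 0.0656, below 0 without hSRY-OFF replicate 1 and hSRY-ON replicate 2. The cause was not tested.

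Rcan1 was left aside here, since it was chosen for its fall. With an array left out, Nfatc4 was always called lower. Nfatc1 ILMN_2648704 was not called without any 1 of the hSRY-OFF arrays, and Nfatc3 was called lower only without hSRY-OFF replicate 3. The count of member probes called higher was 0 with median scaling, no detection filter, array weights, the replicate block and an adjusted p under 0.01, and 0 to 1 with an array left out. Of the pathway genes, 2 to 5 were called lower and 3 to 7 higher with an array left out, 2 lower and 3 higher at an adjusted p under 0.01, and 8 higher without background correction. Over all probes 3728 were called, 1326 at an adjusted p under 0.01, by construction fewer, and 1504 (without hSRY-OFF replicate 1) to 4384 (without hSRY-ON replicate 1) with an array left out. It was also moved by over 1.5 times without hSRY-OFF replicate 2 (1621), hSRY-OFF replicate 3 (2103) and hSRY-ON replicate 2 (2393).

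The replicate numbers are shared between groups. The deviations of same-numbered arrays had correlations of -0.11, 0.10 and -0.09 across probes for numbers 1, 2 and 3. Those of differently numbered arrays ran from -0.09 to 0.16. This showed no pairing by number, but with 3 mice per group it cannot exclude one. With the replicate block 2655 probes were called. Leaving Rcan1 aside, Nfatc4 and Nfatc1 ILMN_2648704 were called lower, and 0 member probes were called higher. Signal over background limits the dim probes of Rcan2, Nfatc1 and Egr2.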
